A study of Mus musculus with 2 samples.

Results

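The Klf4 locus was examined in a ChIP-seq profile of NcoA3 from E14 mouse embryonic stem cells, as a window of 250 kb at 55400001 to 55650000 of chromosome 4 on the mm8 build. The window was selected on the high ChIP tag count and score of a site in the authors' peak list, so the values in its peaks describe the choice and test nothing. All peaks of that list that start and end inside the window were taken, which gave 3 of 2017 peaks, and no further peak crossed its edges. Both libraries were also counted in its 250 bins of 1 kb, of 2630719 bins on chromosomes 1 to 19, X and Y.

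In ChIP-seq, an antibody pulls down a protein with its bound DNA, which is then sequenced. The study has 1 NcoA3 ChIP library and 1 control library, both from E14 (E14Tg2A), an established line that was cultured on gelatin with serum and LIF, the cytokine that keeps such cells undifferentiated. No genetic change or further treatment is given for either library. Per the labels, 8 to 10 µg of antibody and 600 µg of chromatin went into the NcoA3 precipitation, and both libraries had 14 rounds of amplification. The title and description of the control call it input while its antibody field reads IgG, so which of these it was cannot be told apart here. There were 11509916 ChIP reads and 15125180 control reads. With 1 library per group no difference has a replicate check, and all intervals are 95% exact intervals that cover counting error only.

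NcoA3 is a nuclear receptor coactivator: it does not read DNA itself but is brought to chromatin by receptors, and the title of the study names the orphan receptor Esrrb as such a partner. Klf4 encodes a zinc finger transcription factor of the naive pluripotency network, and is one of the classic reprogramming factors. In embryonic stem cells its transcription is known to depend on a cluster of enhancers far downstream of the gene. Klf4 lies on the minus strand, so downstream means lower coordinates.

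The gene was not placed on mm8 here, so sites are given by coordinate only, and their distance to Klf4 is not stated. In the RefSeq table of GRCm38.p6, which was used for gene order and names alone, Rad23b (a factor of DNA repair and protein turnover) was the nearest protein-coding gene on the lower side of Klf4. The records between them were noncoding or pseudogenes, and the 6 records that follow Klf4 on the other side were all long noncoding RNAs. The promoter of Klf4 is shown as the sequence of the gene that defines the locus, for its base composition and motif content. It is the stretch of 250 bases before the RefSeq start, from GRCm38.p6 on the minus strand, with GC boxes (GGGCGG on either strand) in capitals.
Klf4: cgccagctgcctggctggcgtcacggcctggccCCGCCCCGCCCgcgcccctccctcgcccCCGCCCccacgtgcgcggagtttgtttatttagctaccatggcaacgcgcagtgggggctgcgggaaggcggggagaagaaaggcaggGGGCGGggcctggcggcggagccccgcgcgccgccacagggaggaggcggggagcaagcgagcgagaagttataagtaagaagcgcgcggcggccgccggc

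Of its bases 74.0% are G or C. It held 4 matches to the GC box, a pair of which share 1 base, and 32.7% of the 32851 RefSeq promoter stretches of the same length held at least 1. It held 1 match to the E-box CACGTG, which 6.02% of all stretches hold. It held 0 matches to AAGGTCA on either strand, the core motif read by oestrogen-related receptors such as Esrrb, and 4.08% of all stretches hold that. A match is a run of letters and not a binding site, and its absence says nothing of receptors elsewhere in the locus. Which bins of the window hold this promoter was not determined.

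The 3 peaks lay together within 14172 bp and are called left, middle and right in order of coordinate. The left peak spanned 55484969 to 55486015 with its summit at 55485475. The middle peak spanned 55496218 to 55497426 with its summit at 55496760. The right peak spanned 55497926 to 55499140 with its summit at 55498571. The middle and right summits were 1811 bp apart, with 499 bp between the drawn edges, whereas the left summit stood 11285 bp from the middle one. Beyond this cluster the list was empty for 475960 bp on the lower side and for 2285416 bp on the higher side. Of the nearest peaks outside the window, that on the lower side held 31 ChIP and 4 control reads, and that on the higher side 24 and 18.

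**Figure D1:**
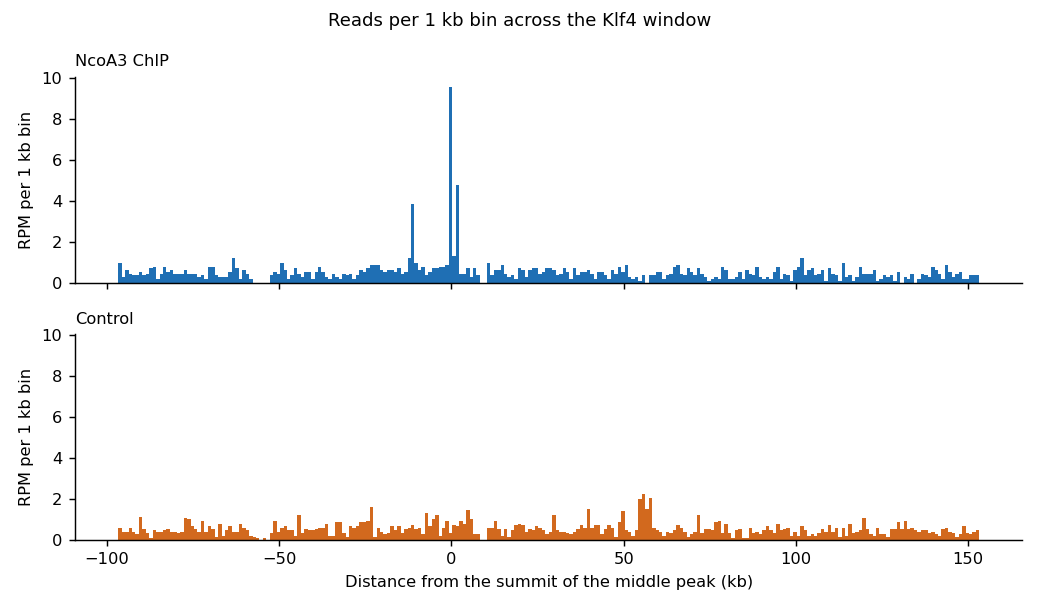
Reads per 1 kb bin in RPM (reads per 1000000 reads on chromosomes 1 to 19, X and Y) against distance from the middle summit in kb, with the NcoA3 ChIP library above and the control below on the same axis. The bins with 110, 55 and 44 ChIP reads stand out in the upper panel, and 4 adjoining bins with 23 to 34 control reads stand out in the lower one.

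The middle peak was the strongest site of the locus. It held 118 ChIP reads (10.3 RPM) and 8 control reads (0.529 RPM), a scaled ratio of 19.4 (interval 9.52 to 45.9). Counted within 300 bp of the summit it was 44.7 (interval 14.9 to 220.0). Few control reads lay that close to the summit, which the caller had placed on these ChIP reads. The ratio divides ChIP by control reads after each library was scaled to its total on chromosomes 1 to 19, X and Y. A ratio of 1 means no difference. Among all peaks it ranked at place 2 by the authors' score, and at place 16 by ChIP reads. By fold with a pseudocount of 1 read it ranked at place 20.

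The left and right peaks were weaker and close to each other. The left peak held 46 ChIP and 12 control reads (4.0 and 0.794 RPM), a ratio of 5.04 (interval 2.63 to 10.4). The right peak held 55 ChIP and 13 control reads (4.78 and 0.860 RPM), a ratio of 5.56 (interval 3.0 to 11.1). Per kb of peak, the right peak had 1.03 times the ChIP reads of the left one (interval 0.684 to 1.56), so the pair did not differ beyond counting error. The middle peak had 2.22 times the ChIP reads per kb of the left (interval 1.57 to 3.20) and 2.16 times those of the right (interval 1.55 to 3.03). Control reads per kb in the middle peak were 0.577 times those in the left (interval 0.205 to 1.54) and 0.618 times those in the right (interval 0.222 to 1.61). In the control the 3 peaks thus did not differ beyond counting error, on few reads each.

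All 3 peaks were 4-fold or more higher in the ChIP library, as were 45.6% of the authors' peaks, and 1 of 3 was 8-fold or more higher, against 8.53% of them. These shares come from the contrast that chose the peaks and are given for scale only. In the authors' deposited table the fold over local background was 36.36 for the middle peak, 12.5 for the right and 11.25 for the left, where the median of all peaks was 4.81. The same table gives an empirical false discovery rate, from calling with the libraries swapped, of 50% for the middle peak and 100% for the left and right peaks. That rate is estimated over the list and not from a peak by itself. The rates of other peaks were not compared here. By the authors' score the right peak ranked at place 44 and the left at 63, and the 3 were the top 3 of the 139 peaks on chromosome 4.

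**Figure D2:**
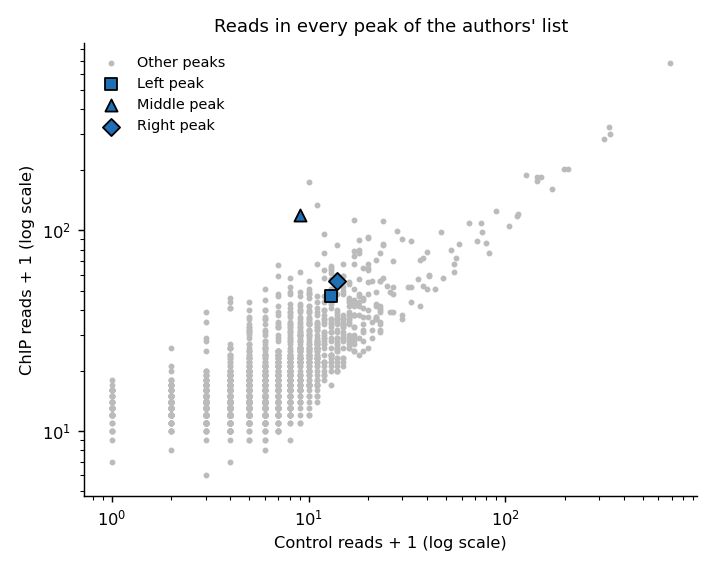
ChIP reads against control reads in each of the 2017 peaks of the authors' list, both plus 1 and on log scales, with the 3 peaks of the Klf4 locus marked by shape. The middle peak (118 ChIP and 8 control reads) sits at the upper edge of the cloud, and the left and right peaks lie close together within it.

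Reads were next split by strand, since 5′ ends around a bound site fall on its left on the plus strand and on its right on the minus strand. The middle peak showed this in full. Within 500 bp on each side of its summit, 48 plus-strand ends lay to the left and 14 to the right, while 10 minus-strand ends lay to the left and 46 to the right. Over the drawn peak, the median minus-strand end was 209 bp to the right of the median plus-strand end. The right peak had the same arrangement with fewer reads: 17 plus-strand ends to the left and 10 to the right, 6 minus-strand ends to the left and 22 to the right. Its medians over the drawn peak were 248 bp apart. The caller had placed the summits on these same reads, so the arrangement follows in part from that.

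The left peak lacked it on the plus strand. There 7 plus-strand ends lay to the left of the summit and 15 to the right, while 1 minus-strand end lay to the left and 21 to the right. Over the drawn peak the medians of the strands were 17 bp apart, and their midpoint was 122.5 bp to the right of the summit. Only 22 plus-strand and 24 minus-strand ChIP reads lay in the peak, so its shape is poorly defined. The ratio was raised on either strand of each peak. It was 13.6 on the plus (interval 5.90 to 38.4) and 36.8 on the minus strand (interval 9.72 to 311.3) of the middle peak, where the minus strand had 2 control reads. It was 5.78 (interval 2.14 to 19.5) and 4.51 (interval 1.88 to 12.4) in the left peak, and 7.10 (interval 2.69 to 23.6) and 4.60 (interval 2.04 to 11.7) in the right.

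**Figure D3:**
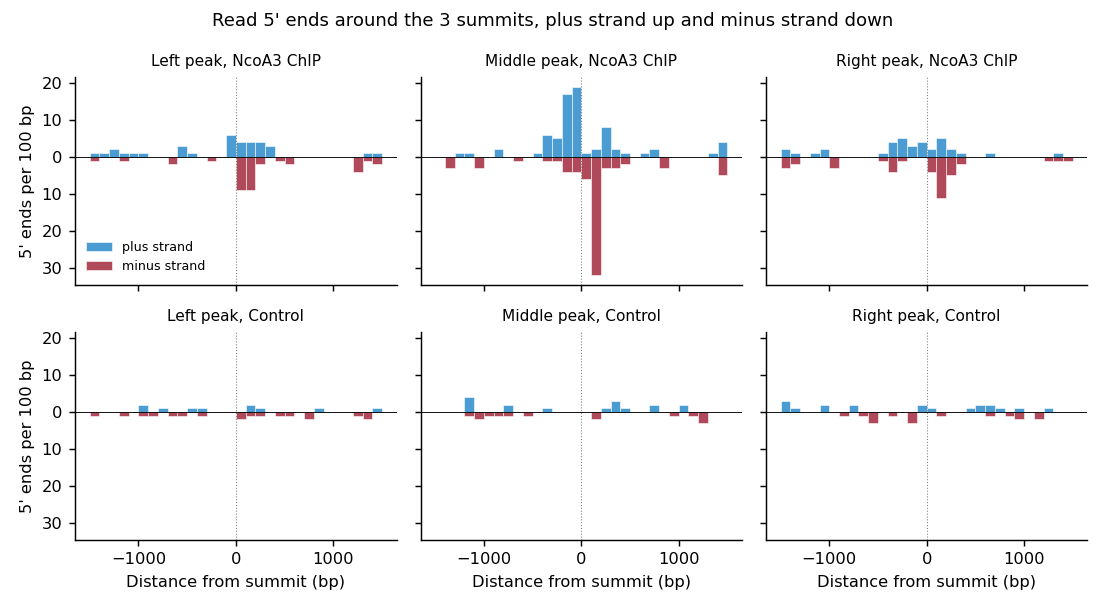
Read 5′ ends per 100 bp within 1500 bp of each summit, plus strand drawn upward and minus strand downward, with the NcoA3 ChIP library in the upper row and the control in the lower. The middle peak has up to 19 plus-strand ends per 100 bp just left of its summit and 32 minus-strand ends at 100 to 199 bp to its right, while the control stays low. Within 500 bp of that summit the control had 1 plus-strand end to the left and 5 to the right. Its minus-strand ends there numbered 0 and 2, too few to show or exclude a strand pattern.

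The middle peak was also where the deposited reads fell furthest short of the caller's tags. It had 149 tags in the authors' deposited table, while 118 reads lay there, or 79.2%. The left peak had 46 reads for 49 tags (93.9%) and the right 55 for 63 (87.3%). Reads were counted where their 5′ ends lie, and the caller's own placing of tags was not reproduced. With 5′ ends moved inward by 100 bp, the ratio of the middle peak was unchanged at 19.4 (interval 9.52 to 45.9). That of the left peak went from 5.04 to 5.37, and that of the right from 5.56 to 6.57. Beyond these ratios, how far the placing enters the differences from the tags was not tested. The caller kept up to 2 tags per position per its header, while neither read file holds any start and strand more than once. In the busiest stretch of the middle peak, at 100 to 199 bp right of the summit, 32 of 100 positions on the minus strand were occupied, each once. The control reads also fell short of the caller's tags, with 15125180 reads for 17633689 tags after its filter over the whole library, against 11509916 for 11840947 in ChIP. The control tags in the peak are not known, and the effect on its ratio was not tested.

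With libraries scaled by their totals, the ratio between the peaks and to their left did not differ from 1 beyond counting error. Over 5 kb to their right it was below 1, as was the window outside its peaks (0.854, interval 0.795 to 0.916). Over 1, 2 and 10 kb on the right the interval spanned 1. These stretches were not scaled to the window itself. The 10202 bp between the left and middle peaks held 80 ChIP and 110 control reads, a ratio of 0.956 (interval 0.707 to 1.29). The 499 bp between the middle and right peaks held 6 reads of each library (ratio 1.31, interval 0.351 to 4.91), too few to show a difference. The 1 kb to the left of the left peak held 14 ChIP and 9 control reads (ratio 2.04, interval 0.824 to 5.35), and the 1 kb to the right of the right peak held 5 and 12 (ratio 0.547, interval 0.151 to 1.67). Over 5 kb the left side held 40 reads of each library (ratio 1.31, interval 0.826 to 2.09), and the right side 30 ChIP and 66 control reads (ratio 0.597, interval 0.374 to 0.933). Over 10 kb the ratio was 1.37 on the left (interval 0.979 to 1.91) and 0.709 on the right (interval 0.488 to 1.02), with both intervals spanning 1. The 3 peaks made up 1.39% of the window and held 14.6% of its ChIP reads but 1.65% of its control reads.

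Outside the peaks the window leaned slightly towards the control. It held 1281 ChIP and 1972 control reads there, a ratio of 0.854 (interval 0.795 to 0.916). Chromosome 4 as a whole had a ratio of 0.928, and scaled by it the window was at 0.920 (interval 0.857 to 0.988). The left flank, with 458 ChIP and 653 control reads, was at 0.922 (interval 0.816 to 1.04), and the right flank, with 737 and 1203, at 0.805 (interval 0.733 to 0.883). Among 10051 windows of the same length, in which bins touching a peak were left out, the window was at the 24.7 percentile of the ratio (0.845 by this count, against a median of 1.18 and quartiles of 0.849 and 1.48). Scaled to its own surroundings, the ratio was 22.7 for the middle peak, 5.90 for the left and 6.51 for the right.

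Few single bins outside the peaks stood out in the ChIP library. Of 243 such bins, 180 held 10 or more reads of both libraries together. ChIP reads in the 243 bins ranged from 0 to 14 with a median of 5, against 44, 110 and 55 in the bins that hold most of the left, middle and right peaks. Genome-wide 56 bins had more ChIP reads than the 110 of the middle peak, and 1 of these had fewer than 50 control reads. That bin, named after its values were seen, lies at 59912001 to 59913000 of chromosome 14, with 134 ChIP and 7 control reads.

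At 4-fold or more, 1 of the 180 bins was higher in the ChIP library (0.556%, where 1.89% of all bins outside peaks were). It lay at 55474001 to 55475000, with 10 ChIP and 2 control reads (ratio 6.57, interval 1.4 to 61.7), about 10 kb left of the left peak. At 2-fold or more, 15 bins were higher in the ChIP library (8.33%, against 15.9% of all bins). With each window scaled by its own reads the shares were close, at 13.3% here and 13.7% of all bins for 2-fold, and at 1.67% and 1.42% for 4-fold. Of the 15 bins, 3 of 63 lay left of the cluster, 2 of 9 between its peaks and 10 of 108 right of it. At 2-fold or more, 29 bins were higher in the control (16.1%, against 16.7% of all bins). These single-bin counts are small, and most of the 15 had intervals that reached below 1. In 10 bins the ChIP library had 0 reads and in 4 of those the control had 0 too. By counting error alone such a 0 is compatible with up to 3 reads, equal to 0.261 RPM for ChIP and 0.198 RPM for the control. Several of these bins adjoined, at 55439001 to 55444000 and at 55505001 to 55507000, where control reads per bin were 0 to 2. Whether reads can be aligned there was not tested.

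One stretch of the right flank stood out in the control. The 4 bins of the window in which the control was 4-fold or more higher (2.22%, against 4.21% of all bins) adjoined one another on this grid, at 55551001 to 55555000, between 54.2 and 58.2 kb to the right of the middle summit. From left to right they held 30, 34, 23 and 31 control reads, and 1, 4, 0 and 4 ChIP reads. Together that was 118 control reads (7.81 RPM) against 9 ChIP reads (0.782 RPM), a ratio of 0.100 (interval 0.0447 to 0.197). No other bin outside the peaks had more than 24 control reads. The bin before the stretch held 7 control and 3 ChIP reads, and the bin after it 9 and 4, so both edges were sharp. The control reads of the stretch were spread evenly over the strands, with 59 on each. Genome-wide, 58 of 2630656 stretches of 4 bins had as many control reads with as few ChIP reads, at 36 separate places. This stretch was chosen after its values were seen. With the bin grid moved by 500 bp, 11 bins of the window were 4-fold or more higher in the control (6.21%, against 4.22% of all bins). Without it the window outside its peaks was at 0.901 (interval 0.839 to 0.969). What lies there on mm8 was not determined, and the part of base composition in it was not tested.

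**Figure D4:**
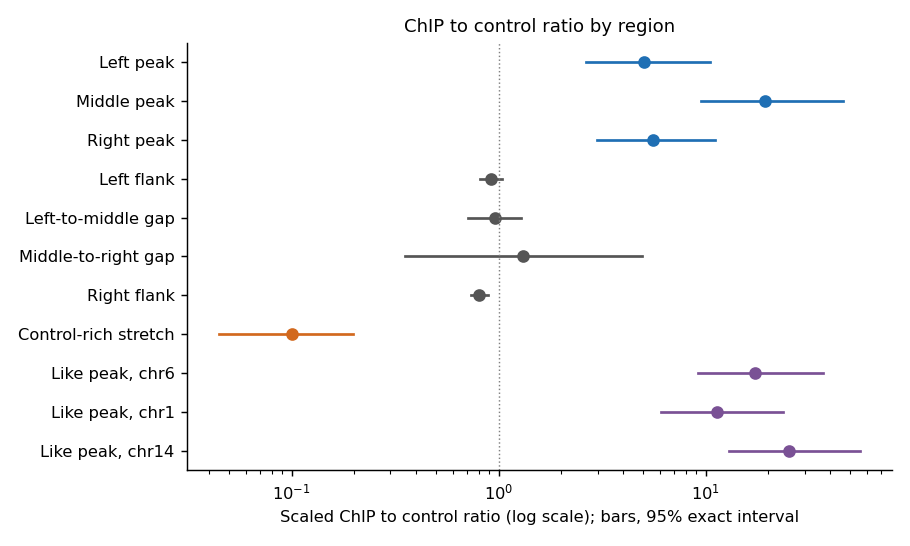
Scaled ratio of ChIP to control reads on a log scale, with 95% exact intervals as bars, for the 3 peaks, the flanks and gaps between them, the control-rich stretch and the 3 peaks elsewhere most like the middle one. The middle peak is at 19.4, the left flank at 0.922, the right flank at 0.805 and the control-rich stretch at 0.100. The interval of the right flank lies below 1.

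The middle peak was set beside the 3 peaks elsewhere that were nearest to it in log2 ChIP and control reads. The nearest was at 122305873 to 122308436 of chromosome 6, the top peak of that chromosome, with 132 ChIP and 10 control reads (ratio 17.3, interval 9.14 to 37.0). The next was at 77335524 to 77337762 of chromosome 1, with 95 and 11 reads (ratio 11.3, interval 6.06 to 23.5). The last was at 59911210 to 59912719 of chromosome 14, the top peak of the whole list by score, with 172 and 9 reads (ratio 25.1, interval 12.9 to 55.9). All of these intervals overlapped that of the middle peak. The peaks were chosen for ChIP and control reads near those of the middle peak, so close ratios follow in part from the choice. The overlap is a description only. Per kb of drawn peak the middle peak had 97.6 ChIP reads, while the peak on chromosome 6 had 51.5, that on chromosome 1 had 42.4 and that on chromosome 14 had 113.9. The middle peak was the shortest of the 4, at 1209 bp, against 2564, 2239 and 1510 bp in the same order.

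As a cluster the Klf4 peaks were compared with every run of 3 successive peaks that fitted within their 14172 bp. There were 26 such runs, the Klf4 cluster included, and some share peaks. With 219 ChIP and 33 control reads (ratio 8.72, interval 6.03 to 13.0) the Klf4 cluster ranked at place 5 by ChIP reads and at place 1 by ratio. The 4 runs with more ChIP reads had ratios of 1.21 to 1.77. The run next in ratio lay on chromosome 10 (62287930 to 62292765), where 112 ChIP reads met 22 control reads (ratio 6.69). The Klf4 cluster was chosen for its strong peak, so these ranks are a description.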

How the data were processed

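Reads were deposited by the authors as 1 line per aligned 35 bp read with mm8 as the build, per the submitters' processing notes. Which aligner made them is not stated in the sources used. Peaks were called with MACS 1.4.1 on 1 ChIP against 1 control library with a p-value limit of 1e-05, d of 200 bp and at most 2 tags per position, per the file headers. The deposited list gives each peak a count of ChIP tags, a score (−10 log10 of the p-value), a fold over local background as a ratio, and a false discovery rate in percent, as the authors' caller wrote them.

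From these, read 5′ ends were counted where they lie, within drawn peaks and 1 kb bins, with scipy 1.17.1, pandas 2.3.3 and numpy 2.4.6 under Python 3.11.15. Libraries were scaled by reads on chromosomes 1 to 19, X and Y (0.761 ChIP reads per control read). Intervals are 95% exact (conditional Clopper-Pearson), and cover counting error only, as the reads carry no molecular identifiers. Bins touching any peak were left out, bins needed 10 or more reads of both libraries together, and folds had a pseudocount of 1 read. No p-value was computed, since each group has 1 library and the peaks were chosen on these reads. Windows of the same length needed 500 or more reads. The bin rule and intervals were tested on simulated data. Named were every window peak, the 3 nearest peaks elsewhere in log2(reads + 1), the top peak of the list and of chromosome 6, bins past 4-fold, and the 3 bins of lowest fold. No mm8 annotation was used, so the part of the naming rule on genes near peaks was not run. The window, its peaks and the lists were chosen with earlier results of these data known. Alternatives covered the position of 5′ ends, the scaling, the peak bounds, the bin grid, the read minimum and the pseudocount.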

Additional observations from a re-analysis of the deposited data

How the results depend on the processing

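The ratio of the middle peak went from 19.4 to 44.7 (interval 14.9 to 220.0) when only 300 bp on each side of its summit were counted. Under that setting the left and right peaks were at 7.32 and 7.88. The summits were placed on the ChIP reads, so a rise under this setting follows in part from that. Other settings were 5′ ends moved inward by 100 bp, or scaling by the window or by chromosome 4. With these the ratio ranged from 19.4 to 22.7 for the middle peak, 5.37 to 5.90 for the left and 5.99 to 6.57 for the right. The 3 peaks together rose from 8.72 to 14.1 when only 300 bp on each side of the summits were counted. The window outside its peaks moved from 0.854 to 0.920 when scaled by chromosome 4. Counts of single bins were less stable. Bins 4-fold or more higher in the ChIP library numbered 1 (0.556%, against 1.89% of all bins). They numbered 2 with the grid moved by 500 bp (1.13% against 1.91%), 0 with a minimum of 20 reads (against 0.259%), 3 with no minimum (1.23% against 2.72%) and 2 with a pseudocount of 0.5 reads (1.11% against 2.89%). With each window scaled by its own reads they numbered 3, and the order of the shares turned (1.67% against 1.42%). At 2-fold, 15 bins (8.33% against 15.9%) became 1 with a minimum of 20 reads (3.03% against 5.09%) and 24 with each window scaled by its own reads (13.3% against 13.7%). Bins 2-fold higher in the control went from 29 (16.1% against 16.7%) to 10 of 33 with a minimum of 20 reads (30.3% against 43.5%). The order of these shares turned with 5′ ends moved inward by 100 bp (18.1% against 16.7%) and with the grid moved (17.5% against 16.7%). It also turned with no minimum (17.3% against 13.2%) and with each window scaled by its own reads (12.2% against 11.9%). With a pseudocount of 0.5 reads it did not turn. Bins 4-fold higher in the control went from 4 (2.22% against 4.21%) to 11 with the grid moved by 500 bp (6.21% against 4.22%, the order turned) and to 7 with a pseudocount of 0.5 reads (3.89% against 5.65%). With each window scaled by its own reads they stayed at 4, and the order turned there too (2.22% against 2.03%). Apart from the read minimum, which leaves fewer bins, the cause of these moves was not tested. No paired analysis was possible because each group has 1 library. A median of 5 ChIP reads per bin limits what single bins can show.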
